A study of Homo sapiens with 9 samples.

Results

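Transcript levels of 5 genes of ferroptosis were followed in A375, an established line of human melanoma cells, with and without Salvianolic acid B (SalB), a phenolic compound of the herb Salvia miltiorrhiza. The genes were *SLC7A11*, *GPX4*, *AIFM2*, *ACSL4* and *LPCAT3*, taken from the count table by symbol. They were 5 of the 20463 annotated genes in that table, and all 5 were among the 13968 genes that passed the filter on low counts. The control cells received no SalB, and the other groups received 100 µM or 200 µM for 48 h, with 3 libraries in each group that the labels describe as biological replicates. No vehicle is named for the control, all libraries carry the same batch label, and all cells grew in DMEM with fetal bovine serum and penicillin-streptomycin. All groups are the same line, and messenger RNA was captured by its poly(A) tail.

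Ferroptosis is an iron-dependent form of cell death in which peroxides build up on polyunsaturated fatty acids of membrane phospholipids. Cells oppose it with glutathione, made from imported cystine and used by the selenoenzyme GPX4 to reduce lipid peroxides, and in parallel with reduced quinones that trap lipid radicals. The supply of oxidisable lipid depends on enzymes that activate polyunsaturated fatty acids and insert them into phospholipids. Melanoma cells that lose differentiation are known for a raised sensitivity to this form of death. SLC7A11 imports cystine, AIFM2 (also called FSP1) reduces ubiquinone and vitamin K, and ACSL4 and LPCAT3 act in the lipid steps.

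Library totals were 27348621 to 30629685 counts, and each of the 5 genes had 686 to 8112 counts in every library. The library of 200 µM replicate 3 stood apart: mitochondrially encoded mRNAs took 4.69% of its counts against 1.81% and 1.85% in the other libraries at 200 µM, 2.83% to 3.11% at 100 µM and 2.09% to 2.29% in control. Its counts differed from those of the other libraries at 200 µM by a chi-square per degree of freedom of 112 and 153, against 7.36 to 23.7 for all other pairs within a group. Fold changes also followed the GC content of genes, with a Spearman correlation over 13874 genes, which are not independent replicates, of 0.48 at 100 µM and 0.22 at 200 µM against control, and -0.22 for 200 µM against 100 µM. Values with that trend removed are therefore given for the 5 genes, and some results are also given without 200 µM replicate 3. Fold changes of other genes are given with the trend left in. Over the alternative settings some of these varied, as *POR* at 100 µM from 0.35 to 0.77 and *BACH1* at 100 µM from -0.92 to -0.52 (log2). Of 8 melanoma and melanocyte markers, 7 passed the filter, with a summed level of 400 to 436 CPM (counts scaled to a common library size) in control, 609 to 618 at 100 µM and 456 to 607 at 200 µM. Most of that came from *SOX10*, while *TYR*, the pigment enzyme tyrosinase, had at most 3 counts in any library. The sum hides opposite changes: at each dose 2 of the 7 were called higher than control and 2 lower. Of all genes, 18.9% were called higher and 18.2% lower at 100 µM, and 19.8% and 17.5% at 200 µM. Leukocyte markers summed to at most 4.32 CPM. In control nearly all of their sum came from *LYZ* (mean 3.77 CPM), while *PTPRC* and *CD3E* had 3 counts or fewer in any library. Fibroblast and endothelial markers summed to 9.25 to 11.2 CPM in control, 22.5 to 23.6 at 100 µM and 10.4 to 12.6 at 200 µM. Epithelial markers summed to 234 to 243 CPM in control, 310 to 342 at 100 µM and 298 to 395 at 200 µM, nearly all from *KRT8* and *KRT18*, while *EPCAM* had at most 9 counts. The part of these shifts in the results below was not tested. In bulk RNA, fewer cells of a kind and less RNA per cell cannot be told apart.

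Each SalB dose gave its own pattern over the 5 genes, described first with the GC trend left in. At 100 µM *SLC7A11* was lower than in control and *LPCAT3* was higher. At 200 µM *SLC7A11* stood near its control level, *AIFM2* and *LPCAT3* were higher and *GPX4* was lower. *ACSL4* did not pass the test in any comparison. The test was edgeR's quasi-likelihood test over all 9 libraries, with Benjamini-Hochberg adjustment over 13968 genes, and the threshold for a call was 0.05 on that adjusted p. By this rule 37.1% of all genes tested were called at 100 µM against control, 37.3% at 200 µM against control and 44.4% between the doses. Of the 5 genes, 2 were called at 100 µM, 3 at 200 µM and 3 between the doses, so these counts are read beside a background in which more than 1 gene in 3 was called. Both comparisons with control use the same control libraries. The pattern changed when the GC trend was removed. At 100 µM *LPCAT3* was then still called higher and *SLC7A11* was not called (-0.26). *GPX4* (-0.54) and *AIFM2* (-0.35) were called lower there, and *ACSL4* (0.18) higher. At 200 µM against control *AIFM2*, *LPCAT3* and *GPX4* kept their calls, and *SLC7A11* was called higher (0.30).

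**Figure D1:**
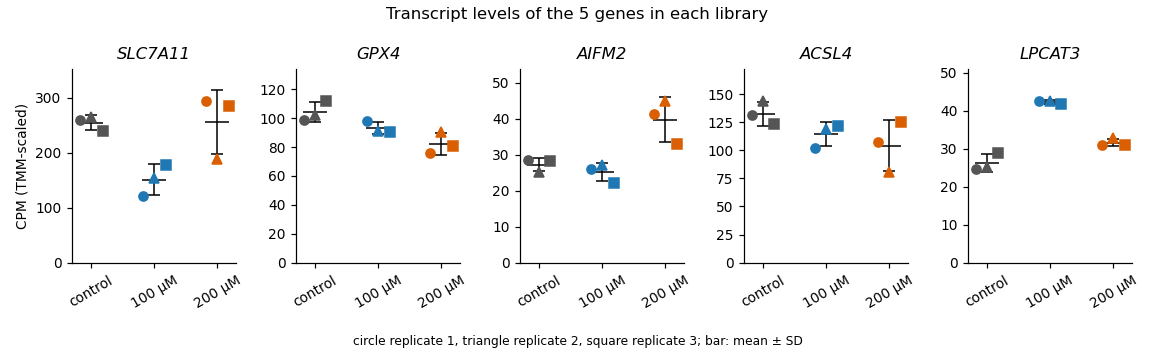
Level of each of the 5 genes in CPM (vertical axes, from 0) in the 9 libraries by group (control, 100 µM, 200 µM); points are libraries and bars are means with SD. *SLC7A11* was lowest at 100 µM (121 to 177 CPM), *LPCAT3* was highest there (41.7 to 42.6), and *AIFM2* was highest at 200 µM (32.8 to 44.9).

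The 5 genes differed widely in level in untreated cells, compared as CPM per kilobase of exon. *GPX4* was the most abundant at 51.6 ± 3.54 (SD, n = 3), above 93.7% of the genes tested. *SLC7A11* followed at 26.4 ± 1.47 and *ACSL4* at 20.7 ± 1.66, above 86.5% and 83% of genes. *LPCAT3* at 5.56 ± 0.492 and *AIFM2* at 5.31 ± 0.336 lay near the middle of all genes and overlapped each other, while the other neighbours in this order did not overlap. At 100 µM *GPX4* stayed first at 46.2 ± 2.12 CPM per kilobase, but *SLC7A11* (15.6 ± 2.97) and *ACSL4* (17.8 ± 1.70) overlapped, and *LPCAT3* (8.94 ± 0.108) stood above *AIFM2* (4.89 ± 0.499). At 200 µM the levels were 40.9 ± 3.74 for *GPX4*, 26.5 ± 6.11 for *SLC7A11* and 16.2 ± 3.52 for *ACSL4*, and *AIFM2* (7.73 ± 1.21) and *LPCAT3* (6.69 ± 0.208) overlapped. The order of the 3 more abundant genes in the mean was *GPX4*, *SLC7A11*, *ACSL4* in control and at 200 µM.

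*SLC7A11* (ENSG00000151012) encodes the light chain of the cystine/glutamate exchanger called system xc-, and lies on the minus strand of chromosome 4 at 138164097 to 138242349 (GRCh38). Its level was 259, 265 and 239 CPM in the control libraries, 121, 154 and 177 at 100 µM, and 294, 189 and 285 at 200 µM. All 100 µM libraries lay below all control and all 200 µM libraries, while the 200 µM values fell on both sides of the control values. Groups did not overlap for 67% of all genes tested at 100 µM against control (34.7% with 100 µM the lower) and for 53.3% between the doses (25.4% with 200 µM the higher). *SLC7A11* was 1.69-fold lower at 100 µM than in control (log2 change -0.75 ± 0.18, SE; edgeR adjusted p = 0.012) and 1.70-fold higher at 200 µM than at 100 µM (0.76 ± 0.18, edgeR adjusted p = 0.0087). Against control the 200 µM level differed by 0.01 on the log2 scale, with a 95% interval from -0.40 to 0.42 (edgeR adjusted p = 0.97). The gene is poor in GC, at 35.4%. With the GC trend removed its change at 100 µM was -0.26 (adjusted p = 0.07), that at 200 µM against control was 0.30 (adjusted p = 0.034), and that between the doses was 0.57 (adjusted p = 0.0013). The rise between the doses thus passed the test on both scales, and the fall at 100 µM passed it only with the trend left in. Of its exon bases, 8.97% overlap the antisense gene *SLC7A11-AS1* on the other strand, and reads there cannot be assigned without strand.

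*SLC3A2*, the heavy chain that carries *SLC7A11* and related light chains to the cell surface, had its lowest values in control. It stood at 168, 170 and 182 CPM in control, 238, 242 and 240 at 100 µM, and 389, 448 and 180 at 200 µM. The third library at 200 µM, the one that stood apart, lay at the control level. *SLC3A2* was called higher at 200 µM against control (0.97 ± 0.27, edgeR adjusted p = 0.019), a call that was lost in 6 of 19 alternative settings, with adjusted p-values up to 0.065, and at 100 µM it changed by 0.47 ± 0.26 (edgeR adjusted p = 0.2). *SLC7A5*, the light chain of the large neutral amino acid exchanger that also pairs with *SLC3A2*, was 2.29-fold higher at 100 µM and 2.26-fold higher at 200 µM (edgeR adjusted p = 0.00024 in both), and differed by -0.02 between the doses (adjusted p = 0.91). *SLC7A6* and *SLC7A7* passed no test. *SLC7A8* was called higher at 200 µM, but on 15 to 23 counts against 0 to 4 in control, and not in 3 of 18 alternatives.

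In a list of genes of cystine import and glutathione synthesis, more were called higher than lower at 200 µM against each other group. *SLC7A11*, which is on the list, was not called at 200 µM against control (0.01, edgeR adjusted p = 0.97, GC trend left in). This list and those below were chosen with earlier results of these data known, so their counts describe the lists and are no independent support. Of the 13 genes listed, 12 were tested. Between the doses 8 were higher and 0 lower by edgeR (8 and 1 at an unadjusted p under 0.05, 8 and 0 by DESeq2), with a median log2 change of 0.62 against -0.01 over all genes. Against control at 200 µM 7 were higher and 0 lower (7 and 0 both unadjusted and by DESeq2), with a median of 0.39 against 0.00 over all genes. At 100 µM 1 was higher and 4 were lower, with a median of -0.22 against -0.01. Across all genes, 22.4% were higher between the doses, 19.8% were higher at 200 µM and 18.2% were lower at 100 µM. *GCLM*, the regulatory subunit of the ligase that joins glutamate to cysteine, had 39.2, 41.2 and 37.4 CPM in control, 27.6, 31.6 and 34.7 at 100 µM, and 98.3, 71.9 and 105 at 200 µM. Every library at 200 µM lay above all others for *GCLM*, which was 2.34-fold higher than in control (1.23 ± 0.15, edgeR adjusted p = 0.00028). The 200 µM libraries lay above all control libraries for 24.4% of all genes, and above all 100 µM libraries for 25.4%. *CHAC1*, an enzyme that degrades glutathione, was 2.26-fold higher at 200 µM (edgeR adjusted p = 0.00064), and *CTH*, which makes cysteine from cystathionine, was 2.08-fold higher (edgeR adjusted p = 8.9e-05). *SLC1A4*, a transporter of small neutral amino acids, was 1.40-fold lower at 100 µM than in control and 2.15-fold higher at 200 µM than at 100 µM (edgeR adjusted p = 0.0045 and 2.8e-05). *SLC1A5*, a glutamine transporter, was called higher at 100 µM against control (0.85 ± 0.25, edgeR adjusted p = 0.026), with values up to 0.083 over the alternatives and 23.8% of its exons shared with other genes. The numbers at 100 µM moved with single libraries: without 200 µM replicate 3, whose spread is shared by every comparison, 3 were higher and 5 lower, without 100 µM replicate 1 there were 0 and 2, and without any 1 control library, or 100 µM replicate 2 or 3, there were 0 and 3. Between the doses 8 were higher and 2 lower without 200 µM replicate 2, and 9 and 1 without replicate 3.

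*GPX4* (ENSG00000167468) encodes the glutathione peroxidase that reduces lipid peroxides within membranes, and lies on the plus strand of chromosome 19 at 1103926 to 1106791 (GRCh38), with no exon shared with another gene. Its enzyme carries selenocysteine, encoded by a UGA codon that is read through with a dedicated machinery. The codon is shown for *GPX4*, its relative *GPX1* and the selenoenzyme *TXNRD1*, which moved in different ways here, with 12 bases on each side and the codon in capitals, from GENCODE v29 transcripts on GRCh38. The codons lie at chr19:1105403-1105405 (plus strand), chr3:49358132-49358134 (minus strand) and chr12:104348413-104348415 (plus strand).
GPX4: gtggcctcccagTGAggcaagaccgaa
GPX1: gtggcgtccctcTGAggcaccacggtc
TXNRD1: caggctggctgcTGAggttaagcccca
In *TXNRD1* the codon stands next to the end of the coding sequence.

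*GPX4* fell slightly at 200 µM. Its level was 98.6, 102 and 112 CPM in control, 98.1, 91.2 and 90.3 at 100 µM, and 75.6, 90.6 and 81.1 at 200 µM. All libraries at 200 µM lay below all control libraries, which was so for 24.5% of all genes (48.8% in either direction), and the 200 µM and 100 µM values overlapped. *GPX4* was 1.27-fold lower at 200 µM than in control (-0.34 ± 0.09, edgeR adjusted p = 0.018). The call was lost without control replicate 3 (-0.28, adjusted p = 0.074), without 200 µM replicate 1 (-0.28, adjusted p = 0.069) and in a fit of those groups alone (adjusted p = 0.056), and it was kept without 200 µM replicate 3 (-0.31, adjusted p = 0.014) and with the GC trend removed (-0.44, adjusted p = 0.016). At 100 µM the change was -0.16 ± 0.09 (edgeR adjusted p = 0.2, 95% interval -0.37 to 0.04). *GPX4* is rich in GC, at 62.5%, and with the GC trend removed that change was -0.54 (adjusted p = 0.0074). Between the doses *GPX4* changed by -0.18 ± 0.09 (edgeR adjusted p = 0.15), or by -0.28 without 200 µM replicate 2 (adjusted p = 0.027), or by 0.10 with the GC trend removed (adjusted p = 0.52), so the sign of the difference between the doses depended on the GC trend.

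*GPX1*, the main cytosolic glutathione peroxidase, fell at 200 µM as well, by a larger fold; the difference between the genes was not tested. Its level was 128, 115 and 93.3 CPM in control, 157, 136 and 141 at 100 µM, and 30.5, 36.9 and 23.4 at 200 µM. The libraries at 200 µM were lower than all others without overlap. Over all genes, 24.5% had 200 µM below control in this way, and 27.8% had it below 100 µM. *GPX1* was 3.71-fold lower at 200 µM than in control (-1.89 ± 0.17, edgeR adjusted p = 6.4e-05) and 4.79-fold lower than at 100 µM (-2.26 ± 0.18, edgeR adjusted p = 1.4e-05). Both calls held in all 19 alternative settings. *GPX3*, the secreted plasma form, was 3.03-fold higher at 100 µM than in control (edgeR adjusted p = 0.0028) at a low level of 3.44 ± 0.777 CPM (SD, n = 3), and 2.90-fold lower at 200 µM than at 100 µM (edgeR adjusted p = 0.0025). *GPX8*, a peroxidase of the endoplasmic reticulum, passed no test, with changes of -0.23, -0.28 and -0.05. *GPX2* had at most 14 counts, and *GPX5*, *GPX6* and *GPX7* had 0 counts in every library. Per kilobase in control, *GPX1* (78.4 ± 12.1 CPM) stood above *GPX4* (51.6 ± 3.54) and *GPX8* (34.0 ± 0.404), and at 200 µM *GPX1* (21.1 ± 4.75) stood below *GPX4* (40.9 ± 3.74).

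The next list held *GPX4*, other selenoproteins, and genes of selenoprotein synthesis and selenium supply. Of these, 6 of 11 were lower at 100 µM than in control, and 6 of 11 were higher at 200 µM than at 100 µM, while the others did not pass the test. Of 11 genes, 6 were lower and 0 higher at 100 µM against control by edgeR (6 and 1 at an unadjusted p under 0.05, 6 and 0 by DESeq2), with a median of -0.37, where 18.2% of all genes were lower. Between the doses 6 were higher and 0 lower (the same numbers unadjusted and by DESeq2), with a median of 0.30, where 22.4% of all genes were higher. At 200 µM against control 2 were higher and 1, *GPX4*, was lower, with a median of -0.01. *TXNRD1*, thioredoxin reductase of the cytosol, had 632, 651 and 605 CPM in control, 378, 404 and 395 at 100 µM, and 1870, 1760 and 1540 at 200 µM. None of these ranges overlapped. Groups did not overlap for 67% of all genes at 100 µM against control, 48.8% at 200 µM and 53.3% between the doses. *TXNRD1* was 1.60-fold lower at 100 µM (-0.68 ± 0.08, edgeR adjusted p = 0.00031), 2.74-fold higher at 200 µM (1.45 ± 0.08, edgeR adjusted p = 4.5e-06) and 4.40-fold higher at 200 µM than at 100 µM (2.14 ± 0.08, edgeR adjusted p = 4.6e-07). *LRP8*, a receptor that takes up selenoprotein P, was 1.48-fold lower at 100 µM (edgeR adjusted p = 0.0014), with 10.3% of its exons shared with other genes. *SELENOI*, a selenoenzyme of ether phospholipid synthesis, was 1.65-fold higher at 200 µM than at 100 µM (edgeR adjusted p = 0.0023). *PSTK*, the kinase that prepares selenocysteine tRNA, was 1.84-fold lower at 100 µM (edgeR adjusted p = 0.013) and 1.78-fold higher at 200 µM than at 100 µM (adjusted p = 0.014), and without 100 µM replicate 2 the adjusted p-values were 0.056 and 0.059. *SCLY*, which recovers selenium from selenocysteine, was called higher at 200 µM (0.31 ± 0.09, edgeR adjusted p = 0.028) but not in 9 of 19 alternatives, with values up to 0.11. Without 200 µM replicate 3 the list had 1 higher and 7 lower at 100 µM and 2 and 2 at 200 µM. At 200 µM it had 2 and 0 without control replicate 3, 1 and 0 without 200 µM replicate 1, and 1 and 1 without control replicate 1 or 2, 100 µM replicate 2 or 3, or 200 µM replicate 2. Between the doses it had 6 and 1 without 200 µM replicate 2.

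**Figure D2:**
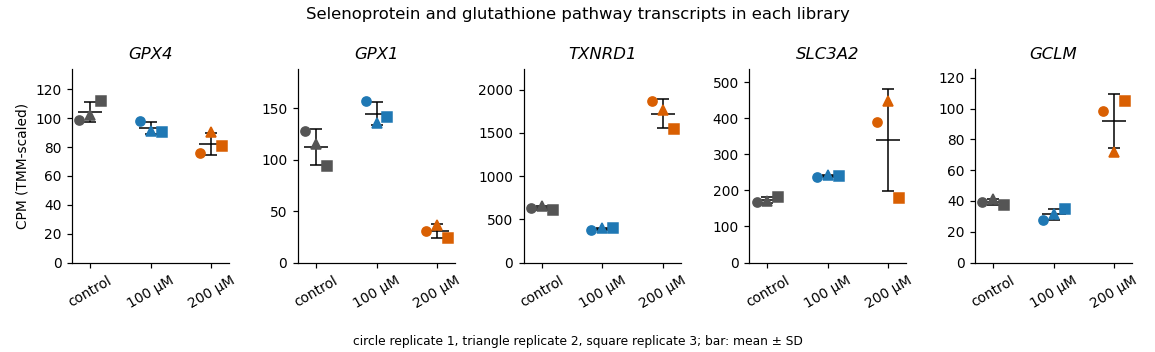
Level in CPM (vertical axes, from 0) of *GPX4*, *GPX1*, *TXNRD1*, *SLC3A2* and *GCLM* in the 9 libraries by group; points are libraries and bars are means with SD. *GPX1* was lowest at 200 µM (23.4 to 36.9 CPM), *TXNRD1* highest (1540 to 1870), and *SLC3A2* at 200 µM had 1 library, replicate 3, at the control level (180).

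*AIFM2* (ENSG00000042286) encodes FSP1, the oxidoreductase that regenerates the radical-trapping forms of ubiquinone and vitamin K, and lies on the minus strand of chromosome 10 at 70098223 to 70132934 (GRCh38). Its level was 28.4, 25.2 and 28.1 CPM in control, 26.0, 27.1 and 22.2 at 100 µM, and 41.3, 44.9 and 32.8 at 200 µM. All libraries at 200 µM lay above all others, with replicate 3 the lowest of them, while control and 100 µM overlapped. Of all genes, 24.4% had 200 µM above control without overlap, and 25.4% had 200 µM above 100 µM. *AIFM2* was 1.46-fold higher at 200 µM than in control (0.54 ± 0.13, edgeR adjusted p = 0.011) and 1.58-fold higher than at 100 µM (0.66 ± 0.13, edgeR adjusted p = 0.0034). The rise over control was 0.68 without 200 µM replicate 3 (adjusted p = 0.00022), 0.46 with the GC trend removed (adjusted p = 0.0013) and 0.49 without control replicate 2 (adjusted p = 0.051). At 100 µM the change was -0.12 ± 0.13 (edgeR adjusted p = 0.52, 95% interval -0.42 to 0.18), or -0.35 with the GC trend removed (adjusted p = 0.0078). The rise between the doses was called in all 19 alternatives, and was 0.81 with the GC trend removed (adjusted p = 3e-05).

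NRF2, a factor that responds to oxidants, binds antioxidant response elements and is known to drive *AIFM2*, so the start of the gene was read for its motif. The RefSeq promoter table (GRCh38.p14) held 4 of the 5 genes and had no entry for *SLC7A11*. Of 6 short motifs searched on both strands in the 250 bases before the start, the core TGACNNNGC was found in *AIFM2* and in none of *GPX4*, *ACSL4* and *LPCAT3*. The match lies on the strand opposite to the gene, within the 30 bases at chr10:70132829-70132858 that run from base 33 to base 4 before the RefSeq start. That start lies downstream of the outermost GENCODE start, so these bases fall within the span of the gene given above. They are shown in the direction of the gene, with the match in capitals.
AIFM2: ccagcacgagtGCTGAGTCAcgccccgccc
The match overlaps one to the AP-1 motif TGANTCA. Of 35116 RefSeq promoters, 10.9% hold the core TGACNNNGC and 6.57% the AP-1 motif in a stretch of this length. A match is a description of the letters, and no binding was measured.

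*AIFM1*, the mitochondrial oxidoreductase of the same family, fell between the doses, where *AIFM2* rose. It was 1.47-fold higher at 100 µM than in control (0.55 ± 0.08, edgeR adjusted p = 0.00088), changed by 0.05 at 200 µM (adjusted p = 0.65) and was 1.42-fold lower at 200 µM than at 100 µM (edgeR adjusted p = 0.00096). *AIFM3* had at most 16 counts in any library and passed no test. Per kilobase in control *AIFM1* (18.8 ± 0.520 CPM) stood above *AIFM2* (5.31 ± 0.336).

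In the wider group of genes of radical trapping without *GPX4*, more were lower than higher at 200 µM against control. Of 23 genes, all tested, 2 were higher and 8 lower at 200 µM against control by edgeR (2 and 11 at an unadjusted p under 0.05, 2 and 9 by DESeq2), with a median of -0.25. At 100 µM 0 were higher and 5 lower by edgeR (the same numbers unadjusted and by DESeq2), with a median of -0.14, and between the doses 5 were higher and 4 lower, with a median of -0.06. Across all genes 19.8% were higher and 17.5% lower at 200 µM, and 18.2% were lower at 100 µM. Between the doses 22.4% of all genes were higher and 21.9% lower. *NQO1*, a quinone reductase and a textbook NRF2 target, had 1030, 1040 and 1000 CPM in control, 703, 671 and 679 at 100 µM, and 1270, 1310 and 986 at 200 µM, where replicate 3 fell below the control range. It was 1.49-fold lower at 100 µM than in control (edgeR adjusted p = 0.0025) and 1.74-fold higher at 200 µM than at 100 µM (edgeR adjusted p = 0.00028), with 17.7% of its exons shared with other genes. *GCH1*, the first enzyme of tetrahydrobiopterin synthesis, was 1.78-fold lower at 100 µM and 1.93-fold higher at 200 µM than at 100 µM (edgeR adjusted p = 0.0087 and 0.0036). *PTS*, the next enzyme of that pathway, was 2.41-fold lower at 100 µM (edgeR adjusted p = 9.8e-06). Several enzymes of ubiquinone synthesis were lower at the higher dose: *COQ2* was 1.81-fold and *COQ7* 1.76-fold lower at 200 µM than in control (edgeR adjusted p = 0.00046 and 0.00098), and *COQ5* was 1.58-fold lower at 200 µM than at 100 µM (adjusted p = 0.011). *DHCR7*, which consumes the radical trap 7-dehydrocholesterol, was 1.93-fold higher at 200 µM (edgeR adjusted p = 0.0015). The counts moved without 200 µM replicate 3 to 5 higher and 12 lower at 200 µM and to 1 and 6 at 100 µM, and without control replicate 2 to 1 and 6 at 200 µM.

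**Figure D3:**
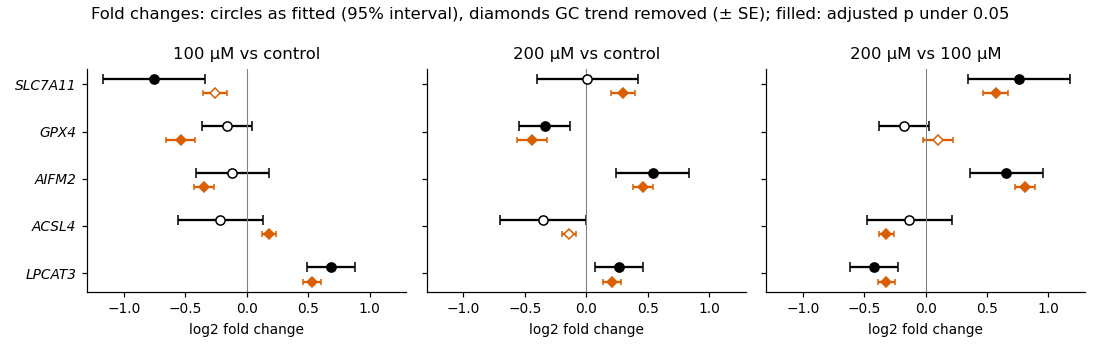
Log2 fold change (horizontal axis) of each of the 5 genes in each comparison; circles give the fit with 95% intervals, diamonds the value with the GC trend removed with SE, and filled symbols an adjusted p under 0.05. *ACSL4* at 100 µM (-0.22 and 0.18) and *GPX4* between the doses (-0.18 and 0.10) changed sign when the trend was removed.

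*ACSL4* (ENSG00000068366) encodes the acyl-CoA synthetase that activates arachidonic and other long polyunsaturated fatty acids, and lies on the minus strand of chromosome X at 109624244 to 109733403 (GRCh38). Its level was 131, 144 and 123 CPM in control, 102, 119 and 122 at 100 µM, and 107, 80.3 and 125 at 200 µM. The 100 µM libraries lay just below the control libraries, which was so for 34.7% of all genes, and the 200 µM libraries overlapped both. *ACSL4* changed by -0.22 ± 0.15 at 100 µM (edgeR adjusted p = 0.3, 95% interval -0.56 to 0.13), by -0.35 ± 0.15 at 200 µM (adjusted p = 0.1, 95% interval -0.70 to -0.01) and by -0.13 ± 0.15 between the doses (adjusted p = 0.51). Without 200 µM replicate 3 the change at 200 µM was -0.49 (adjusted p = 0.0093). The gene is poor in GC, at 37.4%, and with the GC trend removed its change was 0.18 at 100 µM (adjusted p = 0.027), -0.14 at 200 µM (adjusted p = 0.067) and -0.32 between the doses (adjusted p = 0.001). Its direction at 100 µM therefore depended on whether the GC trend was removed.

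*ACSL1*, a synthetase of broad specificity, rose at 200 µM. It had 36.0, 39.4 and 36.1 CPM in control, 34.2, 33.7 and 32.8 at 100 µM, and 89.0, 90.5 and 74.2 at 200 µM. *ACSL1* was 2.27-fold higher at 200 µM than in control (1.19 ± 0.10, edgeR adjusted p = 3.2e-05) and 2.52-fold higher than at 100 µM (edgeR adjusted p = 9.5e-06). *ACSL3*, which supplies monounsaturated fatty acids, passed no test, with changes of -0.15, -0.07 and 0.07. *ACSL5* was called higher between the doses (0.69 ± 0.22, edgeR adjusted p = 0.031) on 36 to 59 counts, and not in 7 of 19 alternatives. *ACSL6* had at most 7 counts. Per kilobase in control *ACSL3* (40.3 ± 0.850 CPM) stood above *ACSL4* (20.7 ± 1.66), and *ACSL1* (5.92 ± 0.312) below it.

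*LPCAT3* (ENSG00000111684) encodes the acyltransferase that inserts polyunsaturated acyl chains into lysophospholipids, and lies on the minus strand of chromosome 12 at 6976186 to 7018510 (GRCh38). Its level was 24.6, 25.3 and 28.9 CPM in control, 42.6, 42.5 and 41.7 at 100 µM, and 31.1, 32.8 and 31 at 200 µM. The 3 groups did not overlap, with 100 µM highest and control lowest. Of all genes, 32.3% had 100 µM above control without overlap, 24.4% had 200 µM above control, and 27.8% had 200 µM below 100 µM. *LPCAT3* was 1.61-fold higher at 100 µM than in control (0.69 ± 0.09, edgeR adjusted p = 0.00044) and 1.34-fold lower at 200 µM than at 100 µM (-0.42 ± 0.09, edgeR adjusted p = 0.0041), and both calls held in all 19 alternatives. At 200 µM it was 1.20-fold higher than in control (0.27 ± 0.09, edgeR adjusted p = 0.038). That call was lost in 11 of 19 alternatives, with adjusted p-values up to 0.15, although the change was positive in each, from 0.21 to 0.34. With the GC trend removed the change of *LPCAT3* was 0.53 at 100 µM (adjusted p = 0.00049) and 0.21 at 200 µM (adjusted p = 0.042). Between the doses it was then -0.32 (adjusted p = 0.0051). Of its exon bases, 65.6% overlap other genes, mainly *EMG1*, a ribosome assembly factor on the opposite strand. The sources used here do not say whether the counting used strand, and without it reads from these genes cannot be told apart, so the values of *LPCAT3* are uncertain. *EMG1* had 120, 110 and 118 CPM in control, 82.8, 95.2 and 80.3 at 100 µM, and 98.0, 113 and 42.1 at 200 µM. Its changes were -0.43 ± 0.29 at 100 µM (edgeR adjusted p = 0.28), -0.46 ± 0.29 at 200 µM (adjusted p = 0.25) and -0.03 ± 0.29 between the doses (adjusted p = 0.94). Its mean was below control at both doses, where that of *LPCAT3* was above, and its mean at 200 µM included the low value of replicate 3.

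*MBOAT7*, *LPCAT1* and *LPCAT2*, which also act on lysophospholipids, rose at 100 µM as well. Of 7 genes of the family, *LPCAT3* included, 4 were higher and 0 lower at 100 µM by edgeR (4 and 0 also unadjusted and by DESeq2), 2 were higher and 0 lower at 200 µM (3 and 1 unadjusted, 2 and 0 by DESeq2), and 0 were higher and 3 lower between the doses (0 and 4 unadjusted and by DESeq2). Of all genes, 18.9% were higher at 100 µM, 19.8% were higher at 200 µM and 21.9% were lower between the doses. *MBOAT7*, which prefers arachidonate and phosphatidylinositol, had 3.05, 3.48 and 3.48 CPM in control, 8.86, 7.23 and 6.39 at 100 µM, and 4.24, 5.34 and 4.41 at 200 µM. It was 2.25-fold higher at 100 µM (edgeR adjusted p = 0.00077) and 1.61-fold lower at 200 µM than at 100 µM (adjusted p = 0.0082). Its call at 200 µM (0.48 ± 0.17, edgeR adjusted p = 0.046) was lost in 13 of 19 alternatives. *LPCAT1*, which makes saturated phosphatidylcholine, was 1.74-fold higher at 100 µM (edgeR adjusted p = 0.0052). *LPCAT2*, which also makes platelet-activating factor, was 1.55-fold higher at 100 µM and 1.41-fold lower at 200 µM than at 100 µM (edgeR adjusted p = 0.0034 and 0.0082). *LPCAT4*, *MBOAT1* and *MBOAT2* passed no test. At 200 µM the number called was 0 without control replicate 1 or 2, 100 µM replicate 2, or 200 µM replicate 1 or 2, was 1 without 100 µM replicate 1 or 3, and was 3 higher and 1 lower without 200 µM replicate 3, and at 100 µM it was 4 and 1 without that library. Per kilobase in control *LPCAT2* (7.48 ± 0.647 CPM), *LPCAT1* (5.72 ± 1.22) and *LPCAT3* (5.56 ± 0.492) were of like level, and *MBOAT7* (0.630 ± 0.0468) lay far below.

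**Figure D4:**
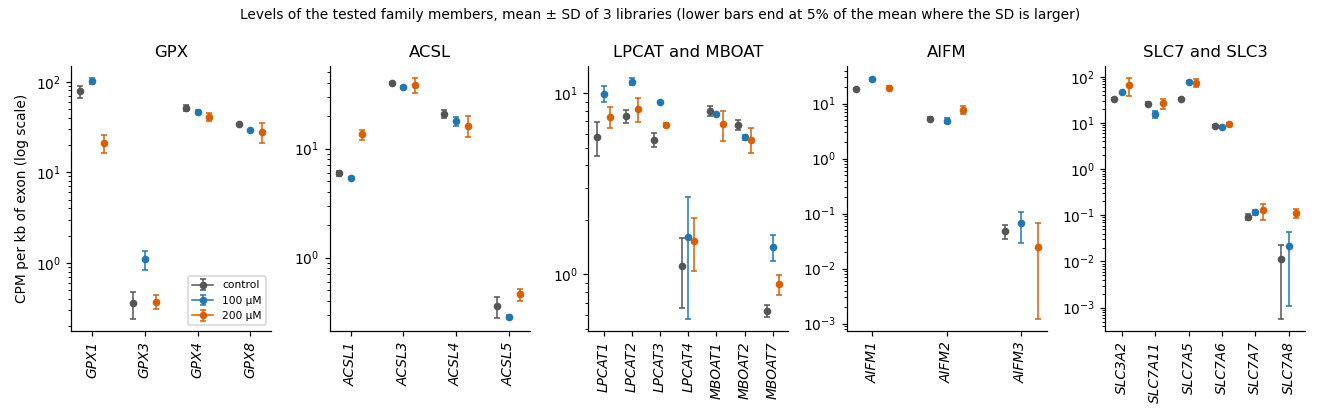
Level per kilobase of exon (CPM per kilobase, log axis) of the tested genes of the GPX, ACSL, LPCAT and MBOAT, AIFM, and SLC7 and SLC3 families in control, 100 µM and 200 µM; points are means of 3 libraries and bars are SD, drawn down to 5% of the mean where the SD is larger. *GPX1* stood above *GPX4* in control (78.4 against 51.6) and below it at 200 µM (21.1 against 40.9).

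Genes of polyunsaturated phospholipid synthesis changed in both directions at each dose. Of 20 genes, all tested, 7 were higher and 4 lower at 100 µM (median 0.05), 7 and 4 at 200 µM (median -0.05), and 6 and 7 between the doses (median -0.15). The shares of all genes called higher and lower were 18.9% and 18.2% at 100 µM, 19.8% and 17.5% at 200 µM, and 22.4% and 21.9% between the doses, so 4 of 20 lower lay near the background. *FADS2*, the desaturase that starts polyunsaturated fatty acid synthesis, was 1.81-fold higher at 100 µM and 1.86-fold higher at 200 µM (edgeR adjusted p = 0.0011 and 0.00079). *SCD*, which makes monounsaturated fatty acids, had 273, 277 and 262 CPM in control, 453, 449 and 465 at 100 µM, and 579, 563 and 544 at 200 µM, without overlap between groups. Such a rise without overlap was seen for 32.3% of all genes at 100 µM, 24.4% at 200 µM and 25.4% between the doses. *SCD* was 1.68-fold higher at 100 µM and 2.08-fold higher at 200 µM than in control (edgeR adjusted p = 4.2e-05 and 5.5e-06). *ACACA*, the acetyl-CoA carboxylase of fatty acid synthesis, was 1.68-fold higher at 100 µM (edgeR adjusted p = 0.00031), and *ACACB*, its mitochondrial form, 1.63-fold lower at 200 µM than at 100 µM (adjusted p = 0.0022). *CD36*, a fatty acid uptake receptor, had 12.2, 10.9 and 9.55 CPM in control, 0.803, 0.422 and 0.940 at 100 µM, and 3.12, 1.99 and 3.18 at 200 µM. It was 15.0-fold lower at 100 µM and 3.94-fold lower at 200 µM (edgeR adjusted p = 2.9e-05 and 0.00051), on 13 to 29 counts at 100 µM. *PLIN2*, a lipid droplet coat protein, was 1.34-fold lower at 100 µM than in control and 2.13-fold higher at 200 µM than at 100 µM (edgeR adjusted p = 0.0011 and 3.1e-06). *FABP5*, a fatty acid carrier, was 1.43-fold lower at 100 µM (edgeR adjusted p = 0.00077). *AGPS* and *GNPAT*, which make ether lipids in peroxisomes, were 1.43-fold and 1.32-fold lower at 200 µM (edgeR adjusted p = 0.015 and 0.0081), and the call of *AGPS* was lost without control replicate 2 (adjusted p = 0.055). *TMEM164* and *ELOVL2* were called lower between the doses (edgeR adjusted p = 0.047 and 0.049) but not in 10 and 11 of 19 alternatives. The counts were 8 and 7 at 100 µM without 200 µM replicate 3, 5 and 2 at 200 µM without control replicate 2, and 6 and 4 between the doses without 100 µM replicate 2 or 3.

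Enzymes that start or limit lipid peroxidation were tested for 10 of 16 genes. The lipoxygenases *ALOX5*, *ALOX15* and *ALOX15B* had at most 0, 2 and 11 counts in any library, and *ALOXE3* at most 13. At 100 µM 3 genes were higher and 1 lower (median 0.23), at 200 µM 2 and 2 (median 0.20), and between the doses 1 and 2 (median 0.02). With 17.5% to 22.4% of all genes called in each direction, 2 of 10 is near the background. *POR*, the cytochrome P450 reductase that can start lipid peroxidation, was 1.63-fold higher at 100 µM and 1.71-fold higher at 200 µM (edgeR adjusted p = 0.01 and 0.0062). *NOX4*, a hydrogen peroxide producing oxidase, had 28.1, 31 and 25.8 CPM in control, 7.13, 6.33 and 7.07 at 100 µM, and 12, 9.9 and 14.4 at 200 µM. It was 4.14-fold lower at 100 µM and 2.35-fold lower at 200 µM (edgeR adjusted p = 2.4e-05 and 0.00026), without overlap between groups. Over all genes, 34.7% were below control without overlap at 100 µM and 24.5% at 200 µM, and 25.4% were higher between the doses in this way. *PEBP1*, a partner of lipoxygenases, was 1.33-fold lower at 200 µM than in control and 1.47-fold lower than at 100 µM (edgeR adjusted p = 0.0093 and 0.0016). *PRDX6*, which reduces phospholipid peroxides, was 1.27-fold higher at 100 µM (edgeR adjusted p = 0.0029), and its fall between the doses (-0.18 ± 0.06, adjusted p = 0.044) was lost in 10 of 19 alternatives. *SAT1*, a polyamine acetyltransferase, was 1.22-fold higher at 100 µM (edgeR adjusted p = 0.0096) and was called at 200 µM (0.25 ± 0.07, adjusted p = 0.018) but not in 4 of 19 alternatives. Without 200 µM replicate 3 the counts were 4 and 2, 5 and 2, and 4 and 3 in the same order. At 200 µM they were 1 and 3 without control replicate 2 and 1 and 2 without control replicate 3, and between the doses 1 and 1 without 100 µM replicate 1 or 2.

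Factors known to control the 5 genes were listed as 15 regulators, of which 14 were tested. At 100 µM 2 were higher and 2 lower (median 0.12), at 200 µM 3 and 1 (median 0.15), and between the doses 3 and 3 (median 0.07), beside 17.5% to 22.4% of all genes called in each direction, so most of these counts lay near the background. Without 200 µM replicate 3 these became 7 and 3, 7 and 2, and 6 and 4. At 100 µM they were 4 and 2 without 200 µM replicate 2, and 2 and 1 without any 1 control library or 100 µM replicate 2 or 3. *ATF3*, a stress-induced repressor of *SLC7A11*, had 4.26, 4.82 and 5.06 CPM in control, 6.04, 5.29 and 5.64 at 100 µM, and 39.8, 42.8 and 29.6 at 200 µM. *ATF3* was 7.93-fold higher at 200 µM than in control and 6.61-fold higher than at 100 µM (edgeR adjusted p = 3.3e-06 and 2.6e-06). *BACH1*, a repressor at antioxidant response elements, had 91.5, 103 and 87.3 CPM in control, 49.2, 51.6 and 53.6 at 100 µM, and 142, 123 and 140 at 200 µM. *BACH1* was 1.82-fold lower at 100 µM and 1.44-fold higher at 200 µM (edgeR adjusted p = 0.00017 and 0.0021). *SLC7A11* was also lowest at 100 µM but did not differ from control at 200 µM by the test with the GC trend left in. With the trend removed *SLC7A11* changed by -0.26 at 100 µM (edgeR adjusted p = 0.07) and by 0.30 at 200 µM (edgeR adjusted p = 0.034). *SREBF1*, a driver of lipid synthesis genes, was 2.76-fold higher at 100 µM than in control (edgeR adjusted p = 0.00015) and 2.11-fold lower at 200 µM than at 100 µM (adjusted p = 0.00045). *PPARA*, a lipid-sensing receptor, was 1.48-fold higher at 100 µM and 2.81-fold higher at 200 µM (edgeR adjusted p = 0.0026 and 1.2e-05). *ATF4*, which drives *SLC7A11* under amino acid stress, was called lower at 100 µM (-0.26 ± 0.07, edgeR adjusted p = 0.022) and lost in 7 of 19 alternatives. *TEAD1*, which acts with YAP, was called lower between the doses (-0.40 ± 0.12, edgeR adjusted p = 0.027) and lost in 4. *NFE2L2*, the gene of NRF2, named here after its values were seen, changed by -0.33 ± 0.19 at 100 µM, 0.18 ± 0.19 at 200 µM and 0.51 ± 0.19 between the doses, with edgeR adjusted p-values of 0.2, 0.48 and 0.052.

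**Figure D5:**
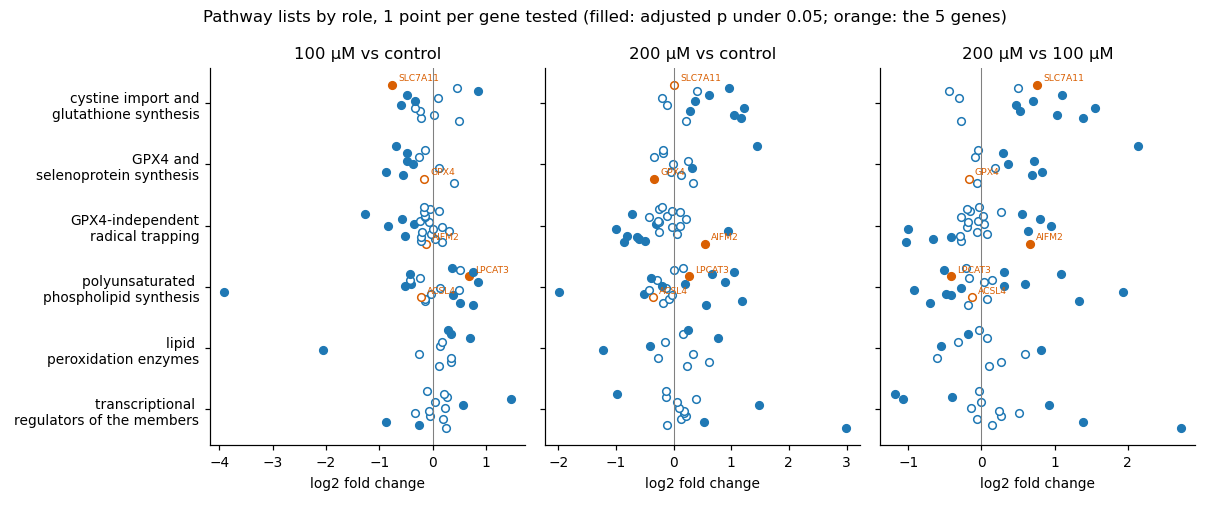
Log2 fold change (horizontal axis) of the tested genes of 6 role lists in the 3 comparisons; each point is 1 gene, filled where the adjusted p was under 0.05 and orange for the 5 genes. Between the doses, cystine and glutathione genes had a median of 0.62 and selenoprotein genes of 0.30, and the other lists had medians from -0.15 to 0.07. The lists were chosen with earlier results of these data known.

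Over the union of the 6 lists, 90 of 98 genes were tested. Of these 13 were higher and 22 lower at 100 µM (median -0.09), 23 and 16 at 200 µM (median 0.01), and 29 and 16 between the doses (median 0.03), beside medians of -0.01, 0.00 and -0.01 over all genes. Over all genes 18.9% were higher and 18.2% lower at 100 µM, 19.8% and 17.5% at 200 µM, and 22.4% and 21.9% between the doses. The union counts rose to 24 higher at 100 µM and 36 higher at 200 µM without 200 µM replicate 3.

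Across the 9 libraries the 5 genes did not move as 1 block. The correlations below use values with the GC trend left in, and its part in them was not tested. As a description without a test, over libraries that share the 3 groups and their depth, Pearson's r of log2 CPM was -0.83 between *SLC7A11* and *LPCAT3*, -0.68 between *AIFM2* and *ACSL4*, -0.53 between *GPX4* and *AIFM2*, and between -0.39 and 0.42 for the other pairs. Of all genes tested, those most like *SLC7A11* were *ABRACL* (r = 0.99), *MOSMO* (0.988) and *PITPNB* (0.983). For *ACSL4* they were *PCNP* (0.986), *MARCHF1* (0.985) and *PKN2* (0.982), for *AIFM2* *SPHK1* (0.979), *NEU1* (0.979) and *PKM* (0.977), and for *LPCAT3* *PODXL* (0.994), *WNK4* (0.991) and *PRR12* (0.991). The closest to *GPX4*, *ST8SIA5* (0.954), *RBM5* (0.947) and *COA3* (0.945), were less like it than the closest genes of the other 4 were to theirs.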

How the data were processed

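The files hold raw counts per gene, deposited by the authors in 1 table of 9 libraries. The submitters' processing notes name the tools HISAT2, featureCounts, FastQC and DESeq2 and the build GRCh38 (hg38). The annotation release and the strand setting were not given in the sources used here. That table has 22605 features. Of these, 2142 assembled transcripts without an Ensembl gene ID, 1.25% to 1.41% of counts, were left out, and 20463 annotated genes remained. Library totals were 27348621 to 30629685 counts. A list of 100 differential genes, also deposited by the authors, holds none of the genes named here and was not used.

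Counts were tested in R 4.3.3 with edgeR 4.0.16 (TMM scaling, low counts filtered with filterByExpr, robust quasi-likelihood fit over all 3 groups, 6 residual degrees of freedom), which was first tested on simulated data. P-values were adjusted by Benjamini-Hochberg over 13968 genes and called under 0.05 with no minimum fold. Alternatives were DESeq2 1.42.0, other scalings and filters, fits of 2 groups only, a replicate block, removal of a lowess GC trend (span 0.3), and leaving out each library. CPM used TMM-scaled library sizes; levels per kilobase used exon lengths from GENCODE v29, which also gave positions, GC content and exon overlaps. Promoter letters came from RefSeq (GRCh38.p14).

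The 5 genes and all gene lists were chosen with earlier results of these data known. Named genes were the 5 genes, the families' genes, up to 3 called genes with the largest change in each direction from each list and comparison, and the 3 genes most correlated with each of the 5. A few genes of the lists are counted but not reported by name here.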

Additional observations from a re-analysis of the deposited data

How the results depend on the processing

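Of the 15 combinations of gene and comparison, 4 kept their direction and their side of the threshold in all 19 alternatives: *LPCAT3* at 100 µM, and *SLC7A11*, *AIFM2* and *LPCAT3* between the doses. All alternatives used the same counts, so they cannot address the overlap of 65.6% of *LPCAT3* exon bases with other genes. The values of *LPCAT3* stay uncertain for that reason. Removing the GC trend gave, at 100 µM against control, log2 changes of -0.26 for *SLC7A11*, -0.54 for *GPX4*, -0.35 for *AIFM2* and 0.18 for *ACSL4*, which reversed. It gave 0.30 for *SLC7A11* at 200 µM, and 0.10 for *GPX4*, reversed, and -0.32 for *ACSL4* between the doses. Fits of 2 groups only gave -0.15 for *GPX4* (adjusted p = 0.039) and -0.21 for *ACSL4* (adjusted p = 0.044) at 100 µM, and -0.34 for *GPX4* and 0.27 for *LPCAT3* (adjusted p = 0.11) at 200 µM. They called 8417 genes at 100 µM, with 24 listed genes higher and 36 lower. With total-count scaling *SLC7A11* at 200 µM was -0.02, reversed from a value near 0, and *LPCAT3* was 0.25; without the low-count filter *LPCAT3* was 0.26. Total-count scaling shifted the median of all genes by at most 0.086 in size. The cause of these changes was not tested.

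Leaving out 1 library at a time gave, at 100 µM, 3469 to 7943 genes called and 10 to 24 listed genes higher. At 200 µM it gave -0.10 to 0.19 for *SLC7A11*, negative without control replicate 3 (-0.03) or 200 µM replicate 1 (-0.10) or 3 (-0.06), -0.42 to -0.28 for *GPX4*, 0.44 to 0.68 for *AIFM2*, -0.49 to -0.20 for *ACSL4*, 0.22 to 0.34 for *LPCAT3*, and 16 to 36 listed genes higher. Between the doses *GPX4* ranged from -0.28 to -0.13.

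The labels give no pairing of samples by replicate number. Correlations of deviations from the group means were -0.16 to 0.03 for same-numbered libraries and -0.06 to 0.17 for differently numbered ones. With 3 libraries a group, such correlations cannot show whether samples were paired. With the replicate block *SLC7A11* at 200 µM was -0.01 and *LPCAT3* 0.27 (adjusted p = 0.085). With the replicate block and the GC trend removed the values at 100 µM were -0.26 for *SLC7A11*, -0.53 for *GPX4*, -0.35 for *AIFM2* and 0.18 for *ACSL4*, and between the doses 0.09 for *GPX4* and -0.32 for *ACSL4*. With 3 libraries a group, an exact permutation test cannot go below 0.1, so p-values rest on the fit across all genes.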
